A study of Caenorhabditis elegans with 4 samples.

Results

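Among 365 listed 6mA peaks of *Caenorhabditis elegans*, 4 were assigned to genes of heterotrimeric G protein and cAMP signalling. These genes are *egl-30*, which encodes the alpha subunit Gq, *gsa-1*, which encodes the alpha subunit Gs, *kin-1*, the gene of the protein kinase A catalytic subunit, and *pde-6*, which encodes a cyclic nucleotide phosphodiesterase. They were chosen by the gene name that the authors' deposited list gives to each peak, and each has 1 peak. Having a peak is therefore the basis of the choice and not a result. The deposited descriptions read as an alpha subunit of a G protein for *gsa-1*, a cAMP-dependent kinase catalytic subunit for *kin-1* and a phosphodiesterase for *pde-6*, while *egl-30* is described there as a hypothetical protein.

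The list comes from methylated DNA immunoprecipitation sequencing (MeDIP-seq), in which an antibody enriches DNA fragments that carry N6-methyladenine (6mA) and pile-ups of such fragments are called as peaks. The series holds 4 genomic DNA libraries, 1 in each of 4 groups, from whole wild-type animals of the strain Bristol at the fourth larval stage (L4), raised at 22 °C. The groups are untreated animals with and without antibody, and animals grown from eggs to L4 on 1.92 µM antimycin A, an inhibitor of mitochondrial complex III, with and without antibody. The title of the treated antibody library gives 1.93 µM. The antibody is named for N6-methyladenosine in the labels. The shared prefix of the peak names could not be tied to a library, so treated and untreated animals were not compared, and the list holds neither peak heights nor read counts. Depth is unknown, and the absence of a listed peak does not show that a gene lacks 6mA.

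A receptor that binds its ligand makes a heterotrimeric G protein exchange GDP for GTP on the alpha subunit, which then acts on effector enzymes. Gq activates phospholipase C beta, and in *C. elegans* neurons this promotes transmitter release and egg laying. Gs activates adenylyl cyclase, the cAMP made frees the catalytic subunit of protein kinase A from its regulatory subunit, and phosphodiesterases break cyclic nucleotides down again. The 4 genes thus span the alpha subunits, the kinase that responds to cAMP, and an enzyme that ends such signals.

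The Gq alpha gene *egl-30* had the widest of the 4 peaks. It covered 884 bp of chromosome I, from 1836404 to 1837287 on the build ce10, and was annotated to intron 1 of 7. Its centre lay 909 bp downstream of the nearest transcription start, and its facing edge 467 bp downstream, so the peak was clear of the start. The peak was wider than 341 of 364 nuclear peaks (93.7%), which had a median width of 404 bp and a range of 229 to 1732 bp. It was the widest of the 20 first-intron peaks, whose median was 454 bp, and ranked ninth of the 75 intronic peaks.

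The Gs alpha gene *gsa-1* carried its peak in the promoter class. That peak covered 545 bp (chromosome I, 1069520 to 1070064), with its centre 591 bp and its facing edge 318.5 bp upstream of the start. It was wider than 113 of the 138 promoter peaks (81.9%), whose median was 376.5 bp, and 105 of the 138 lay closer to a start. The *gsa-1* peak was thus a wide promoter peak at a long distance for its class.

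The protein kinase A gene *kin-1* also had a promoter peak, and it was the narrowest of the 4. It covered 269 bp (chromosome I, 14945734 to 14946002), and its centre lay 287 bp and its facing edge 152.5 bp upstream of the start. It was wider than 20 of the 138 promoter peaks (14.5%), and 58 of the 138 lay closer to a start. In width the 2 promoter peaks stood at opposite sides of the promoter median, and in distance the *kin-1* peak was near the promoter median of -306 bp.

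The phosphodiesterase gene *pde-6* had a peak of 454 bp (chromosome I, 881259 to 881712), like that of *egl-30* in intron 1 of 7. Its centre lay 1228 bp and its facing edge 1001 bp downstream of the start, the farthest of the 4. Its width equalled the median of the first-intron peaks, a set that includes this peak and an equally wide one at *tlk-1*. Among all 364 nuclear peaks, 191 (52.5%) lay closer to a start than the *pde-6* peak, against 162 for *egl-30*, 122 for *gsa-1* and 68 for *kin-1*. The nuclear median was 1104.5 bp on either side, so 3 of the 4 centres lay nearer to a start than the median and that of *pde-6* lay farther.

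**Figure D1:**
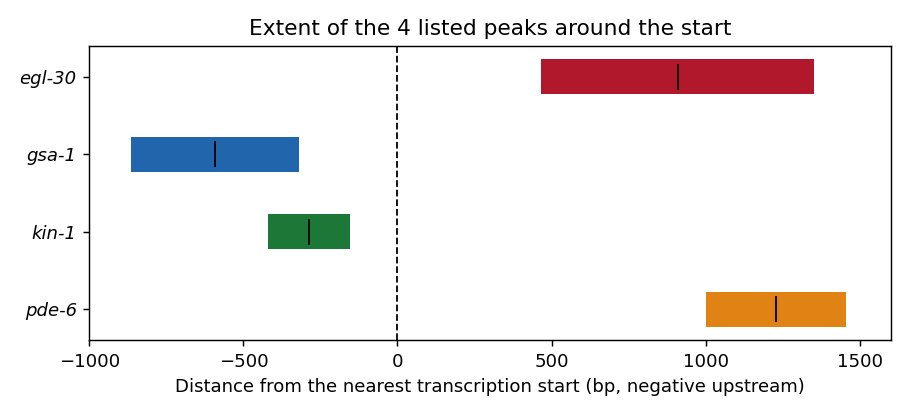
Extent of the 4 listed peaks (bars) and their centres (black ticks) in bp from the nearest transcription start (dashed line, negative upstream), taking the deposited distance as that of the peak centre. The *gsa-1* and *kin-1* peaks lie upstream, the *egl-30* and *pde-6* peaks downstream, and none of the 4 covers the start.

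None of the 4 peaks covered the nearest start. Of all nuclear peaks, 53 of 364 did (14.6%, exact 95% binomial interval 11.1 to 18.6%), and of the promoter peaks 47 of 138 did (34.1%, 26.2 to 42.6%). The 4 peaks thus comprised 2 in the promoter class, 287 and 591 bp upstream, and 2 in first introns, 909 and 1228 bp downstream. Of all promoter peaks, 105 of 138 (76.1%) lay upstream of the nearest start. Of all first-intron peaks, 14 of 20 (70%) lay downstream, so these sides are the usual ones for both classes. First introns held 20 of the 75 intronic peaks. Over the 261 peaks nearest to protein-coding genes, 81 (31.03%, 25.5 to 37.0%) were in the promoter class and 65 (24.9%, 19.8 to 30.6%) in introns. With 4 chosen peaks, no difference from these shares was tested.

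For each of the 4, the transcript that the peak was annotated to was also the transcript at the nearest start. The same held for 184 of 285 nuclear peaks with an annotated transcript (64.6%, 58.7 to 70.1%), for 106 of 138 promoter peaks and for 38 of 75 intronic peaks. In a RefSeq gene table (assembly WBcel235), the transcripts behind the *egl-30* and *pde-6* peaks belong to those genes. The transcripts behind the *gsa-1* and *kin-1* peaks did not match a current entry, as for 39 of the 285 peaks. That table gives 14 transcripts to *kin-1*, 3 each to *egl-30* and *pde-6*, and 2 to *gsa-1*, so the *kin-1* distance refers to 1 start of a gene with many transcripts.

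Among the 20 first-intron peaks, 3 lay in intron 1 of 7, those of *egl-30*, *pde-6* and *tlk-1*, which encodes a tousled-like kinase. The *tlk-1* peak was as wide as that of *pde-6* (454 bp), but its nearest listed start lay on the other side, with the peak 1645 bp upstream of it. The first-intron peaks closest to *egl-30* in width were assigned to the non-coding gene W02B8.13 (741 bp), *pals-11* (676 bp) and T05A8.5 (645 bp), so the next width below *egl-30* was 143 bp smaller. After *tlk-1*, those closest to *pde-6* were assigned to the chemoreceptor gene *sri-54* (448 bp) and to C30F2.5 (424 bp). Promoter peaks closest to *gsa-1* in width were assigned to R08C7.11 and T04F3.6 (546 bp each) and to the peptidyl-prolyl isomerase gene *cyn-5* (548 bp, 408 bp upstream). Those closest to *kin-1* were assigned to the cathepsin Z gene *cpz-1* (270 bp), the piRNA gene 21ur-8691 (268 bp) and T10H9.9 (268 bp, 328 bp upstream). These names are of the nearest gene, and the annotated intron or promoter can be another gene's. By annotated transcript, the gene table gives T26H2.15 for the W02B8.13 peak, *wdr-31* for T05A8.5, Y53F4A.5 for *sri-54* and Y67D8A.8 for C30F2.5. It gives R08C7.16 for the R08C7.11 peak and *sgnh-1* for that of 21ur-8691.

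**Figure D2:**
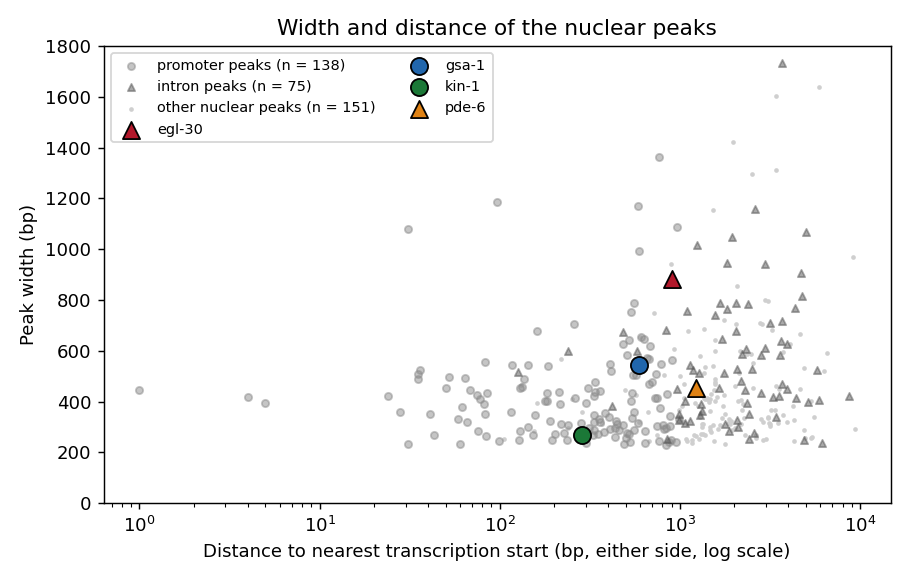
Width in bp against distance to the nearest transcription start in bp on either side (log scale) for the 364 nuclear peaks, with promoter peaks as circles, intronic peaks as triangles and the 4 named genes in colour. The *egl-30* peak (884 bp) stands in the upper part of the width range and the *kin-1* peak (269 bp) near its lower limit.

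All 4 peaks lay on chromosome I, which carried 62 of the 365 peaks (16.99%, 13.3 to 21.2%). In order of position they were numbers 7 (*pde-6*), 11 (*gsa-1*), 17 (*egl-30*) and 60 (*kin-1*) of those 62. The *pde-6* and *gsa-1* peaks were 188 kb apart with 3 listed peaks between them, and *egl-30* followed 767 kb beyond *gsa-1* with 5 between. The *kin-1* peak lay 13.1 Mb beyond *egl-30*, near the other end of the listed range, with 42 peaks between. Members of the pathway on one chromosome were thus spread over nearly the whole length that the listed peaks span, with 3 of 4 in its first part.

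The closest listed neighbour of the *egl-30* peak was 4.92 kb away, measured between centres, and 32 of 364 nuclear peaks (8.79%) had a closer one. This neighbour (chromosome I, 1841626 to 1841899, 274 bp) was assigned to the non-coding RNA gene M01D7.11, 524 bp downstream of its start, and annotated to the promoter of *emr-1*, which encodes emerin, a protein of the inner nuclear membrane. The gene table places M01D7.11 between *egl-30* and *emr-1*. The 2 peaks were each other's closest neighbour and carry consecutive peak numbers, 43 and 44, so no numbered peak is missing from the list between them. On the other side, the next listed peak was in intron 2 of 6 of Y73E7A.8, 199 kb away.

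The *pde-6* peak had its closest listed neighbour 39.4 kb away (chromosome I, 920638 to 921150), assigned to Y95B8A.12 and annotated to intron 1 of 10. The gene table gives both the annotated transcript and the transcript at the nearest start of that neighbour to *prhg-1*, so the names Y95B8A.12 and *prhg-1* do not mark different assignments. On the other side, 61.7 kb away, lay a peak assigned to the zinc finger homeobox gene *zfh-2* and annotated to intron 7 of 17. Neither the annotated transcript of the *zfh-2* peak nor the one at its nearest start matched the gene table. The third gene after *pde-6* in the gene table is *gpa-16*, which encodes another G alpha subunit with a known role in spindle positioning in the embryo, and *gpa-16* was not the nearest gene of a listed peak. Peak numbers run in order of position, and 2 numbers between the *pde-6* peak and its neighbour are not in the list, so a closer unlisted peak may exist there.

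The *kin-1* peak lay 47.3 kb from its closest listed neighbour, an intergenic peak nearest to *tep-1*, which encodes a thioester-containing protein. These 2 have consecutive numbers, 282 and 283, and were each other's closest neighbour. On the other side the list held nothing for 575 kb, up to a promoter peak of the enoyl-CoA hydratase gene *ech-7*, and 13 numbers are missing in between. Of the 4, the *gsa-1* peak was the farthest from a listed neighbour, at 100.4 kb from a promoter peak of the cuticlin-like gene *cutl-20* (3 numbers missing) and 216 kb from a peak assigned to Y48G8AR.3 (4 missing). The Y48G8AR.3 peak was in the class TTS (transcription termination site), and its annotated transcript belongs to Y48G8AR.2. Of the nuclear peaks, 210 (57.7%) had a closer neighbour than *gsa-1*, 130 (35.7%) than *kin-1* and 113 (31.04%) than *pde-6*, and the nuclear median was 81.5 kb. For chromosome I the median was 47.9 kb, and *gsa-1* alone of the 4 lay above it.

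**Figure D3:**
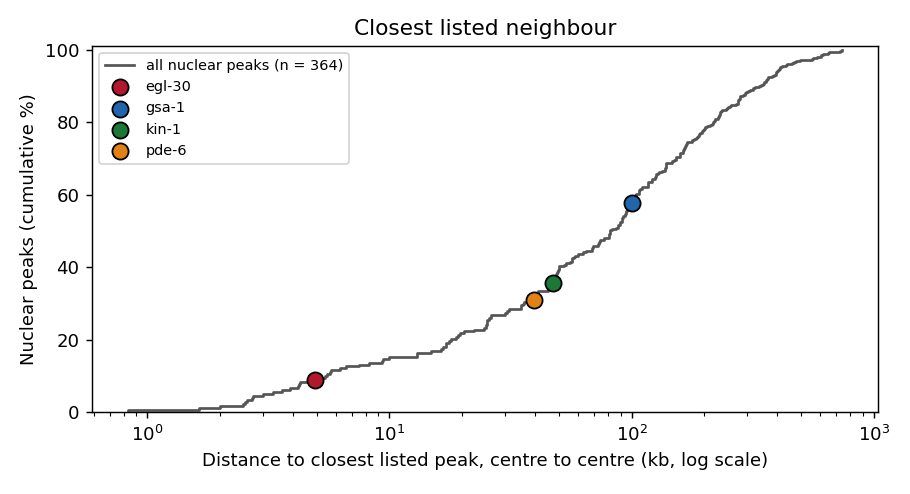
Cumulative share of the 364 nuclear peaks by distance to the closest listed peak on the same chromosome (kb between centres, log scale), with the 4 named genes marked at the share of peaks that have a closer neighbour. The *egl-30* peak, 4.92 kb from its neighbour, is at 8.79%, and the other 3 peaks are between 31.04 and 57.7%.

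Over wider windows the order differed. Within 250 kb on each side, the *pde-6* peak had 8 other listed peaks and the *gsa-1* peak 6, while *egl-30* and *kin-1* had 2 each, which is the nuclear median (quartiles 1 and 3). The value of 8 was the highest of any nuclear peak and was shared by 4 peaks, those assigned to *mps-3*, T06A4.3, *zfh-2* and *pde-6*, which lie in 1 run on chromosome I. The *pde-6* and *gsa-1* peaks count each other and shared 4 further neighbours, assigned to *zfh-2*, Y95B8A.12, Y95B8A.2 and *cutl-20*, so their 2 values are not separate observations. Of the 20 nuclear peaks with at least 6 others in this window, 9 were on chromosome I, which carried 62 of all 365 peaks (16.99%). Neighbouring peaks count each other, so the 20 are not separate observations, and no difference between chromosomes was tested. With 100 kb on each side the *gsa-1* peak had 0 others and the *pde-6* peak 4, and with 500 kb both had 12. The *egl-30* and *kin-1* peaks had 1 and 2 others within 100 kb (nuclear median 1) and 6 and 2 within 500 kb (nuclear median 4), so at 500 kb they lay on opposite sides of the median. The *kin-1* peak was number 60 of 62 on chromosome I, and windows were not corrected for chromosome ends, so its counts may be lowered by that. *mps-3*, T06A4.3 and Y95B8A.2 were named after their values were seen.

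**Figure D4:**
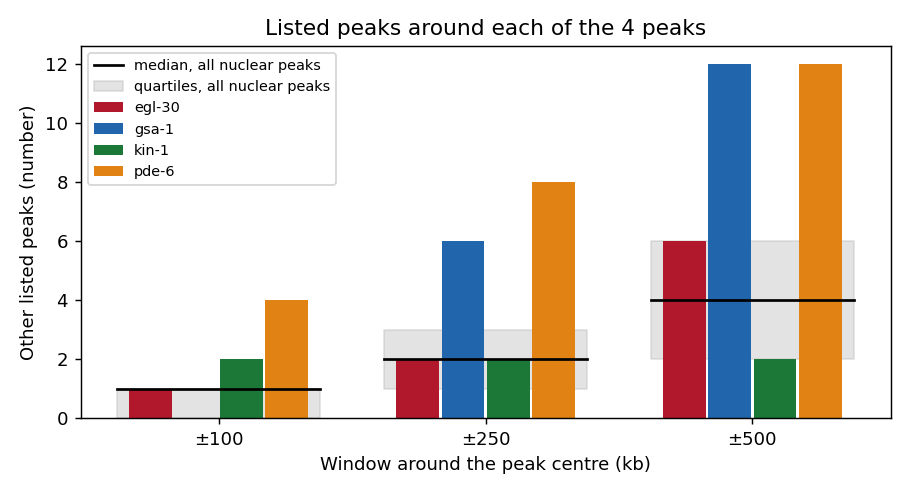
Number of other listed peaks within 100, 250 and 500 kb on each side of the 4 peaks (bars), with the median (line) and quartiles (shaded) over all 364 nuclear peaks. At 250 kb the bars of *pde-6* (8) and *gsa-1* (6) stand above the upper quartile of 3, those of *egl-30* and *kin-1* at the median of 2, and at 100 kb *gsa-1* has none.

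The rest of the pathway was read from 6 gene lists. List genes were matched by their current symbol to the gene names of the listed peaks. A gene named there only by an older name would be counted as without a peak. The list of G protein subunits held 26 genes, and 2 had a listed peak, *egl-30* and *gsa-1*. The Go alpha gene *goa-1*, the other 19 G alpha genes (*odr-3* and the *gpa* genes), the 2 G beta genes and the 2 G gamma genes did not. The cAMP list held 17 genes, and 2 had a listed peak, *kin-1* and *pde-6*. None of the 4 adenylyl cyclase genes *acy-1* to *acy-4*, which make cAMP, nor *kin-2*, which encodes the regulatory subunit of protein kinase A, nor the other 5 phosphodiesterase genes had one. Of 19983 protein-coding genes in RefSeq, 255 were nearest to a listed peak (1.28%), and of all 46926 genes, 361 were (0.769%). Since the 4 genes were picked for their peaks, the 4 of 43 in these 2 lists are not read against that background.

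The other 4 lists together held 1 gene with a listed peak. Over all protein-coding genes the share was 1.28%, and the counts of these lists were not tested against it. That share also counts genes matched by an older name or by the transcript at the nearest start. It and the list counts are therefore not counted alike, and the list counts may be too low. The 19 regulators (among them the RGS genes *egl-10* and *eat-16* and the exchange factor gene *ric-8*) had 0, as did the 18 Gq and Go effectors (among them the phospholipase C beta gene *egl-8*, the diacylglycerol kinase gene *dgk-1* and *unc-13*). The 125 receptors for transmitters and peptides, a list that leaves out the chemoreceptor genes, had 0. Among these is *npr-23*, which the gene table places next to *gsa-1*. Of 42 genes of cGMP signalling, 1 had a listed peak. This was *gcy-28*, which encodes a receptor-type guanylate cyclase, with a peak of 248 bp in intron 5 of 19 (chromosome I, 4486752 to 4486999). That peak lay 4857 bp upstream of the start nearest to it, which is another *gcy-28* transcript's. Over all 6 lists, 5 of 247 genes had a listed peak (2.02%). Of these 5, 4 were picked for having one, so this share is not read against the background either.

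A further guanylate cyclase gene, *gcy-36*, was met by transcript and not by nearest gene. A peak of 469 bp on chromosome X (15483645 to 15484113) was annotated to intron 9 of 12 of *gcy-36*, whereas its nearest start, 3689 bp away, was that of the non-coding gene H13N06.8. By nearest gene, the 5 list genes with a peak all lay on chromosome I, where the gene table places 29 of the 247 list genes and 13 of the 43 subunit and cAMP genes. Of the 5, 4 were picked for having a peak. The 218 list genes on other chromosomes had 0. On chromosome I, 50 of 2877 protein-coding genes were nearest to a listed peak (1.74%), and on the other chromosomes 205 of 17106 were (1.2%). Unlike the list counts, these shares include genes matched by an older name or by transcript. Subunit and cAMP genes on chromosome I without a listed peak included *goa-1*, *gpa-14*, *gpa-15*, *gpa-16*, *gpb-2*, *gpc-2*, *pde-1*, *pde-5* and *crtc-1*, which encodes a CREB coactivator.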

How the data were processed

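The deposited file is 1 table of annotated peaks for the series, which gives, per the file headers, position, annotation class, signed distance to the nearest transcription start, and nearest gene, and no scores. Per the submitters' processing notes, the tools were MACS2 2.1.0, Picard, Bowtie2 2.2.6 and Trimmomatic 0.35 and the build was ce10, with no step named for any tool. Not given in the sources used here are the annotation tool, the class limits and how numbered peaks entered the list (365 listed, highest number 1645). The deposited distance was taken as that of the peak centre. Width was end minus start plus 1, and edge distance was the centre distance less the distance from centre to edge. Peaks were compared by rank and count, without tests, and shares carry exact (Clopper-Pearson) 95% intervals, which cover counting error over listed peaks. Of the names in 6 gene lists, which gave 247 genes, 1 (*rgs-8*) did not match. The gene table's coordinates were not used beyond gene order. The members and lists were chosen with earlier results of these data known. Genes were named if they were members, their neighbours on each side, list genes with a peak, or up to 3 peaks of the same class nearest in width. The genes of annotated transcripts of such peaks were named as well. Outside this rule, list genes without a peak were named as examples, among them *gpa-16* and *npr-23*, which lie near members in the gene table. Peak measures were tested on simulated data. Computations ran in SciPy 1.17.1, pandas 2.3.3 and NumPy 2.4.6 under Python 3.11.15.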

Additional observations from a re-analysis of the deposited data

How the results depend on the processing

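Measured from the nearest edge, distances to the start were 467 bp (*egl-30*), 318.5 bp (*gsa-1*), 152.5 bp (*kin-1*) and 1001 bp (*pde-6*). Between facing edges the closest listed neighbours were 4.338, 99.9, 46.97 and 38.9 kb away in the same order. With neighbours limited to peaks of protein-coding genes, the *egl-30* value became 199 kb and the other 3 did not move. The share of narrower peaks changed within the same annotation class to 88.0% for *egl-30*, 81.9% for *gsa-1* and 41.3% for *pde-6*, from 93.7, 75.3 and 62.6% over all nuclear peaks. Within chromosome I it changed to 69.4% for *gsa-1* and 54.8% for *pde-6*. For *egl-30* it was 91.9% within chromosome I. The *kin-1* share was 14.5% within its class and within chromosome I, from 12.4% over all nuclear peaks. A promoter window of 500 bp upstream to 100 bp downstream held 1 of the 4 peaks (*kin-1*) in place of 2, and windows of 1000 and 2000 bp upstream held 2. Of all listed peaks, the windows of 500, 1000 and 2000 bp held 21.4, 33.7 and 49.0%, against 37.8% in the deposited promoter class. No difference from these shares was tested. Leaving the 4 members out of the pathway lists left 1 gene of 5 with a peak, which follows from how the members were chosen. This setting, the restriction to chromosome I, which kept all 5, and the windows of 100 and 500 kb were added after seeing the data. The share of genes with a listed peak was 0.769% of all genes and 1.28% of protein-coding genes. Merging peaks within 1000 bp could not touch the 4 peaks, whose neighbours are all farther away. Stricter peak thresholds and overlap rules were not run, for want of peak scores and of a further set of peaks. No paired analysis was possible because the result comes from no test and every group is a single library.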
